A study of Mus musculus with 5 samples.

Results

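The genes described here are 10 genes used to name stem cell and upper follicle compartments of the mouse hair follicle: Plet1, Lrig1, Lgr6, Sox9, Nfatc1, Lhx2, Tbx1, Gas1, Lgr5 and Cd34. They were chosen by gene symbol, with earlier results of these data known, and all 10 had a row among the 17657 genes of the deposited table. By follicle region, from textbook knowledge, 3 of them (Plet1, Lrig1, Lgr6) are known from the infundibulum and isthmus and 7 from the bulge and hair germ. RNA was measured in cultured epidermal stem cells, which are keratinocyte progenitors. They came from skin of male mice of the C57BL/6 strain, labelled 8 weeks, and were cultured in the keratinocyte medium KGM2. Cells of Angptl4 knockout mice (KO, 2 libraries, KO1 and KO2) were compared with cells of wild-type mice (WT, 3 libraries, WT1 to WT3), with no other agent or allele given. Angptl4 encodes a secreted protein that inhibits lipoprotein lipase, and the deleted part of the gene was not given in the sources used here. Cells were in culture, outside the follicle, so a gene's region is where it is known from in skin and not where these cells were taken from.

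The mouse hair follicle opens at the skin surface through the infundibulum, narrows at the isthmus beside the sebaceous gland, and holds its slow-cycling stem cells in the bulge, with the hair germ just beneath. Bulge stem cells are kept by transcription factors that include Sox9, Lhx2, Nfatc1 and Tbx1 and carry the surface protein CD34 in mice, while the hair germ and lower bulge carry the R-spondin receptor Lgr5. Plet1, Lrig1 and Lgr6 mark cells above the bulge that feed the infundibulum, isthmus and sebaceous gland.

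Of the 10 genes, Plet1, the most abundant, was 5.93-fold lower in KO cells. Tbx1 (14.7-fold), Gas1 (8.46-fold) and Sox9 (1.58-fold) rose in KO cells, as did 2 genes with only a few counts in WT libraries, Lhx2 and Lgr5. Lrig1, Nfatc1 and Cd34 did not pass the test, and Lgr6 had too few counts to be tested. The 5 genes that rose are all among the 7 bulge and hair germ genes, and the 1 that fell is among the 3 infundibulum and isthmus genes. Only 2 of those 3 were tested, and 2 of the 5, Lhx2 and Lgr5, had enough counts for a test only in KO. No test of a difference between the regions was made.

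Each library held between 20283084 and 20773407 expected counts. Changes were tested with edgeR's quasi-likelihood test and Benjamini-Hochberg adjustment over the 12957 genes that passed the count filter, and a change was called at an adjusted p under 0.05. Of all genes tested, 40.8% were called, 20.4% higher and 20.4% lower in KO, so a call was common in this comparison. Among the 10 follicle genes, 9 were tested, 5 were called higher and 1 lower. Lgr5 and Lhx2 passed the count filter only through the KO libraries, where they are high, so they had to differ, and the 7 other tested genes had 3 calls higher and 1 lower. In 5 of those 7 genes (7 of all 9 tested) the groups were separate, with both KO libraries above or both below every WT library, against 66.4% of all genes tested. The median log2 change was 0.23 over the 7 genes and 0.66 over all 9, against 0.02 over all tested genes. Separate animals or cultures are not stated for the libraries of 1 group, so the p-values reflect only how these samples varied, and that variation may be technical. The KO libraries differed more from each other than the WT libraries did, with a coefficient of variation beyond counting noise of 28.9% in KO and 5.21% in WT. Angptl4 itself was at 0.86 and 1.11 TPM (transcript abundance scaled by length and within each library) in KO1 and KO2, against 7.34, 6.09 and 4.34 TPM in WT1, WT2 and WT3, a log2 change of -2.56 ± 0.32 (SE, adjusted p = 0.00458). In cell mixtures such as these, fewer cells of a type and less RNA per cell cannot be told apart.

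**Figure D1:**
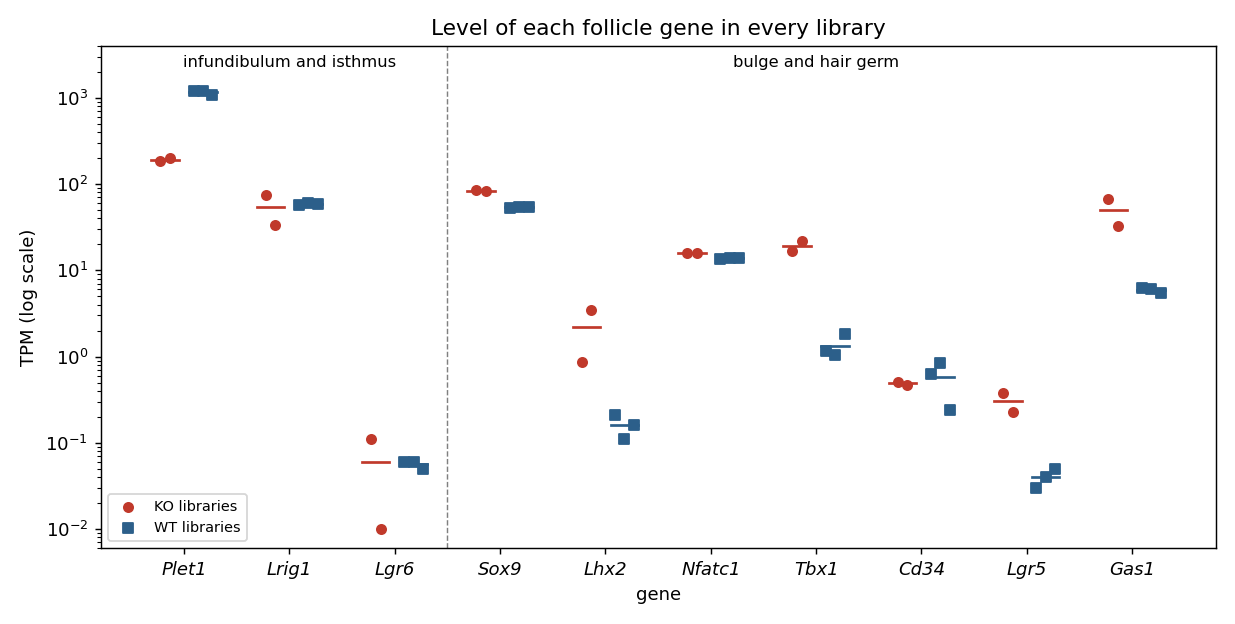
Level of each of the 10 follicle genes in every library, in TPM on a log axis, with KO libraries as red circles left of WT libraries as blue squares and a bar at each group's mean. Plet1 is lower in both KO libraries than in any WT library, and Tbx1, Gas1, Sox9, Lhx2 and Lgr5 are higher in both.

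Plet1 encodes a membrane protein anchored by glycosylphosphatidylinositol that marks keratinocytes of the infundibulum and upper isthmus. Its level was 183.8 and 200.59 TPM in KO1 and KO2, against 1188.04, 1199.57 and 1083.19 TPM in WT1, WT2 and WT3. The KO libraries lay within 10% of each other in TPM and far under the lowest WT library. These levels rest on 3510.6 and 3866.62 expected counts in KO and 22446.0, 22723.5 and 20558.8 in WT. The log2 change was -2.57 ± 0.11 (SE, adjusted p = 0.000733), and 2.33% of all tested genes changed by more in either direction. Plet1 was the 19th gene by p-value over the whole table. Its mean of 1157 ± 64.1 TPM in WT (SD, n = 3) stood above 99.3% of the genes in the table, and its mean of 192 ± 11.9 TPM in KO (SD, n = 2) above 95.8%.

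The deposited Plet1 row (NCBI gene 76509, GRCm38.p6, chr9:50488427-50507852, plus strand) is wider than the RefSeq gene, chr9:50494525-50505639. It pools 5 transcripts, 4 of which are RNAcentral entries, and an antisense gene of GENCODE M21, Plet1os, spans the locus at chr9:50488795-50507823 on the minus strand. The strand setting of the counting was not given in the sources used here, so reads of Plet1 and of an antisense RNA cannot be told apart. The effective length implied by counts and FPKM (a count scaled by length and depth) was 1800 bases in each of the 5 libraries, beside 1689 bases for the longest Plet1 transcript of GENCODE and 815 and 1119 bases for those of Plet1os. The promoter of Plet1 is shown because it is the member that fell and, of the 7 members searched, the one with a TATA box. The RefSeq window covers 250 bases before to 50 bases after the start (GRCm38.p6, chr9:50494275-50494574, plus strand), and capitals mark, from left to right, CCAAT on the minus strand, the AP-1 letters TGANTCA and TATAAA.
Plet1: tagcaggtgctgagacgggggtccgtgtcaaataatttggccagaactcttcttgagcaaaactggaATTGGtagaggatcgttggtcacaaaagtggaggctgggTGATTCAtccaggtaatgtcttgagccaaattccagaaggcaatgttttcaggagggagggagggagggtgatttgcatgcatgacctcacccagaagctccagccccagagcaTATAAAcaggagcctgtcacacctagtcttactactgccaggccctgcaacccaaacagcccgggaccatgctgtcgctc
The TATA box starts 30 bases before the transcription start, the AP-1 match 144 bases before it and the CCAAT match 183 bases before it, and none overlap. Over all 32851 mouse windows of this length, 8.32% hold TATAAA on the transcribed strand, 7.81% hold TGANTCA on either strand and 37.4% hold CCAAT on either strand. Of the 9 windows searched, from 7 follicle genes, 1 holds TATAAA and 1 holds TGANTCA, both in Plet1. No window of Nfatc1, Lgr5 or Sox9 was searched. A match is a description of the letters and not of binding.

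Of the other upper follicle genes, Lrig1 did not pass the test and Lgr6 was not tested. Lrig1, a transmembrane inhibitor of the EGF receptor family that marks isthmus stem cells, was at 74.11 and 33.17 TPM in KO1 and KO2, against 56.69, 59.66 and 58.44 TPM in WT1, WT2 and WT3. KO1 lay above all WT libraries and KO2 below all of them, while the WT libraries differed by little. The log2 change was -0.08 ± 0.33 (SE, adjusted p = 0.861), with KO1 0.39 above and KO2 0.78 below the WT mean on the log2 scale. The sign of the Lrig1 change therefore depends on the KO library. Without KO1 the log2 change was -0.79 (adjusted p = 2.23e-05) and without KO2 it was 0.40 (adjusted p = 0.000373), with the lone KO library taken to vary as the WT ones do. Over 16 alternative settings the adjusted p ranged between 2.23e-05 and 0.914 and passed in these 2 alone. KO1 and KO2 differed 2.25-fold in Lrig1, and 10.7% of all tested genes differed at least 2-fold between them.

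Lgr6, an R-spondin receptor of the upper isthmus, stood at the limit of detection. It had 7.39 and 1.01 expected counts in KO1 and KO2, against 3.66, 3.96 and 3.53 in WT1, WT2 and WT3. The groups overlapped, and KO1 was the highest library and KO2 the lowest. Summed over libraries and scaled for depth, the KO to WT ratio was 1.11, with a 95% exact counting interval between 0.387 and 3.03 that covers counting error only. A change within these bounds was not detectable at this depth.

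Among bulge genes, Sox9 had the smallest of the changes that passed, and its replicates lay close together. Sox9 encodes a transcription factor needed to form the stem cell compartment of the follicle. Its level was 85.12 and 83.01 TPM in KO1 and KO2, against 53.05, 54.25 and 54.58 TPM in WT1, WT2 and WT3. Both KO libraries exceeded every WT library, and within each group the libraries were nearly equal. The log2 change was 0.66 ± 0.06 (SE, adjusted p = 0.00288), with 0.68 for KO1 and 0.64 for KO2 against the WT mean. By size, 29.1% of all tested genes changed by more than Sox9.

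Nfatc1, the calcineurin-responsive transcription factor that holds bulge stem cells in quiescence, was at 15.78 and 16.07 TPM in KO1 and KO2, against 13.65, 13.99 and 14.0 TPM in WT1, WT2 and WT3. The groups did not overlap, but the difference was 1.17-fold. The log2 change of 0.23 ± 0.07 (SE) missed the threshold with an adjusted p of 0.0543. It passed in 5 of 16 alternative settings, with adjusted p between 0.0267 and 0.318 over all of them, so its call depends on the scaling, the count filter and the libraries used. The deposited rows of Nfatc1, Gas1, Lgr5 and Lgr6 name the plus strand, whereas GENCODE M21 places all 4 genes on the minus strand, and each of these rows also pools RNAcentral transcripts with the mRNAs.

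Tbx1 and Lhx2 were 14.7-fold and 14.3-fold higher in KO by the fit, the Tbx1 change on many more counts. Tbx1, a T-box transcription factor linked to bulge stem cell self-renewal, was at 16.66 and 21.81 TPM in KO1 and KO2, against 1.15, 1.04 and 1.83 TPM in WT1, WT2 and WT3. The lowest KO library was well above the highest WT library. Counts were 311 and 419 in KO, against 21, 19 and 34 in WT, and the log2 change was 3.88 ± 0.28 (SE, adjusted p = 0.00186). Only 0.687% of all tested genes changed by more than Tbx1. Its mean level of 19.2 ± 3.64 TPM in KO (SD, n = 2) stood above 65.5% of the genes in the table, and its mean of 1.34 ± 0.428 TPM in WT (SD, n = 3) above 37.0%.

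Lhx2 encodes a LIM homeodomain transcription factor that maintains bulge stem cells. It was at 0.86 and 3.5 TPM in KO1 and KO2, against 0.21, 0.11 and 0.16 TPM in WT1, WT2 and WT3. These levels rest on 21 and 78 counts in KO, against 5, 2 and 3 counts in WT, so the groups do not overlap but the WT level is a handful of reads. KO2 exceeded KO1 3.67-fold, the widest gap between KO libraries among the 9 tested follicle genes. The fitted log2 change was 3.84 ± 0.73 (SE, adjusted p = 0.0128), and the ratio of summed counts was 15.1, with a 95% exact counting interval between 7.87 and 32.4. The log2 change was 4.48 without KO1 and 2.63 without KO2, so its size rests on the KO library, and on log2(TPM + 1), which understates the change of low genes, it was 1.32. Lhx2 lost its call without WT1 (adjusted p = 0.0516), without WT2 (0.0589) and without WT3 (0.0613), over a range between 6.96e-05 and 0.0755 in its 14 alternatives.

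The promoters of Tbx1 and Lhx2 are shown because both genes rose in KO and were low in WT, and capitals mark the GC box letters GGGCGG on either strand. Each gene has 2 windows in RefSeq, and the one with GC boxes is given, for Tbx1 at chr16:18588850-18589149 on the minus strand and for Lhx2 at chr2:38339031-38339330 on the plus strand (GRCm38.p6).
Tbx1: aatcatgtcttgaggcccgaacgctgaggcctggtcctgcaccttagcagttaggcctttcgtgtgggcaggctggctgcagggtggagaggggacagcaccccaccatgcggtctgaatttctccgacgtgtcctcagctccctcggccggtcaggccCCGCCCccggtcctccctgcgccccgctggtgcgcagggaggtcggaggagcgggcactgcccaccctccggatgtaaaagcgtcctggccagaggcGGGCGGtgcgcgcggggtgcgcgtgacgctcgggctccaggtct
Lhx2: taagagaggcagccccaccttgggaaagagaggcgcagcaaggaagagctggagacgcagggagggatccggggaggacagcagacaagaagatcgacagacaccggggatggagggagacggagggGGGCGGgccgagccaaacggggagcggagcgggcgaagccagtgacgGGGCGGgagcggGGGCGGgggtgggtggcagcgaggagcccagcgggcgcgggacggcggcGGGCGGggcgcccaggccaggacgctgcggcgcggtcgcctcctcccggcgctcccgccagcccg
The Lhx2 window has 4 GC boxes, a GC content of 74.7% and 34 CpG sites. The Tbx1 window has 2 GC boxes, a GC content of 69.0% and 26 CpG sites. Over all windows the median was 52.7% GC and 7 CpG sites, and 35.7% held a GC box. That share is no yardstick for the windows shown, which were picked for their GC boxes. The other windows of Lhx2 (69.3% GC) and Tbx1 (58.3% GC) have no GC box. The Plet1 window has 52.3% GC, 5 CpG sites and no GC box. GC boxes were not limited to genes that rose. The windows of Lrig1 (73.0% GC, 35 CpG sites) and Lgr6 (67.7% GC, 24 CpG sites) have 2 each. The Cd34 window, of a gene that did not pass, has 7 CpG sites and no GC box. None of the marked matches overlap.

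Gas1 was the most abundant of the follicle genes that rose at least 8-fold. It encodes a membrane co-receptor for Hedgehog ligands and is known from the hair germ and bulge. Its level was 66.58 and 32.94 TPM in KO1 and KO2, against 6.3, 6.09 and 5.53 TPM in WT1, WT2 and WT3. Both KO libraries were far above all WT libraries, with KO1 the higher by 2.03-fold. The log2 change was 3.08 ± 0.30 (SE, adjusted p = 0.00304), at 3.49 for KO1 and 2.47 for KO2 against the WT mean. Of all tested genes, 1.03% were called and at least 8-fold higher in KO, and Tbx1 and Gas1 are among them. Lhx2 and Lgr5 also passed that line, but not independently of the count filter.

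The deposited Gas1 row covers chr13:60174405-60182100, whereas the RefSeq gene ends at position 60177535, and a GENCODE lincRNA on the plus strand, Gm48488, covers chr13:60176682-60182862. The effective length implied by counts and FPKM was 3080 to 3090 bases in the 5 libraries, beside a RefSeq gene of 3131 bases. The promoter window of Gas1 (GRCm38.p6, chr13:60177486-60177785, minus strand) is given for comparison with those of Tbx1 and Lhx2. Capitals mark a GC box on the minus strand, 144 bases before the start, and CCAAT on the plus strand, 68 bases before it.
Gas1: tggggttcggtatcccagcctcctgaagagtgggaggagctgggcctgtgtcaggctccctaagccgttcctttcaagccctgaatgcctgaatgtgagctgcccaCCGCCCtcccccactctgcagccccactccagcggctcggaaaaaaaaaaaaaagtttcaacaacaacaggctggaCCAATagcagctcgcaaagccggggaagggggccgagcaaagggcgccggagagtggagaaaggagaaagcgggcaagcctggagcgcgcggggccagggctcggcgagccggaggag
Neither TATAAA nor TGANTCA is in the Gas1, Tbx1 or Lhx2 windows shown. The GLI letters GACCACCCA are held by 0.253% of all windows and the TEAD letters GGAATG by 14.7%. Neither is in the 9 follicle gene windows searched, on either strand, and Nfatc1, Lgr5 and Sox9 were not searched.

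Lgr5 encodes the R-spondin receptor of the hair germ and lower bulge. It had 18.67 and 11.26 expected counts in KO1 and KO2, against 1.31, 2.1 and 2.31 in WT1, WT2 and WT3. Both KO libraries exceeded every WT library, but at 0.38 and 0.23 TPM in KO and 0.03, 0.04 and 0.05 TPM in WT the gene was among the lowest of the 10. The fitted log2 change was 3.08 ± 0.51 (SE, adjusted p = 0.00899), and the ratio of summed counts, 30 in KO and 6 in WT, was 7.62, with a 95% exact counting interval between 3.12 and 22.4. On log2(TPM + 1) the change was 0.33. A GENCODE gene on the plus strand, A930009A15Rik, lies inside Lgr5 at chr10:115569986-115582448.

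Cd34, the sialomucin used to sort mouse bulge stem cells, showed no change beyond the spread between libraries. It was at 0.51 and 0.47 TPM in KO1 and KO2, against 0.63, 0.85 and 0.24 TPM in WT1, WT2 and WT3. The WT libraries spanned 3.82-fold and enclosed both KO libraries, and 3.66% of all tested genes spanned at least 2-fold among WT libraries. The log2 change was -0.18 ± 0.57 (SE, adjusted p = 0.821). With 14 and 13 counts in KO, against 17, 23 and 6 in WT, the ratio of summed counts was 0.895, with a 95% exact counting interval between 0.535 and 1.47.

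**Figure D2:**
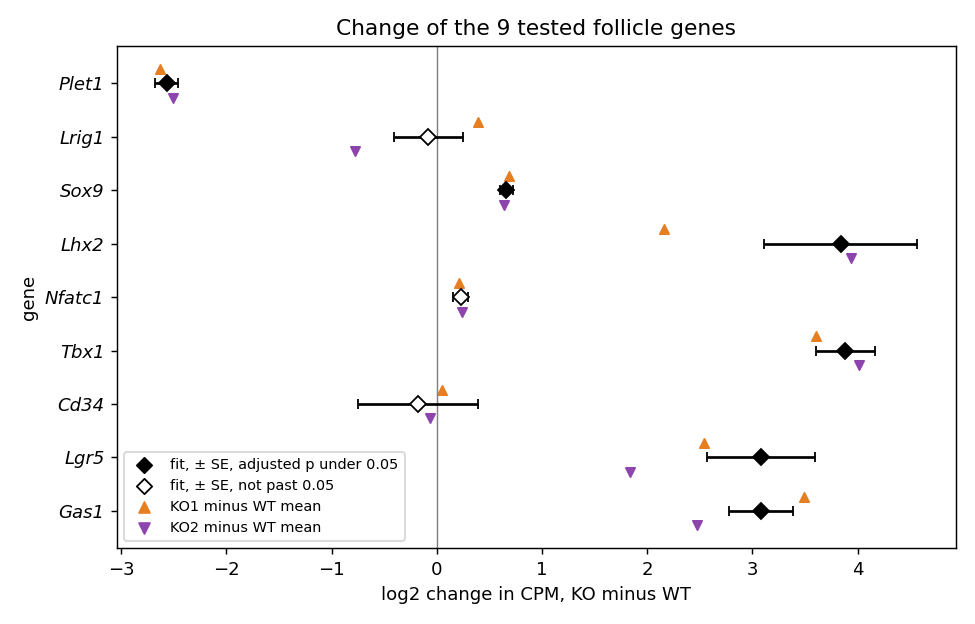
Log2 change of the 9 tested follicle genes, KO minus WT, from the edgeR fit (diamonds with SE, filled where adjusted p is under 0.05), with the difference of each KO library from the WT mean of log2 CPM (triangles; CPM, counts scaled by library size, with a prior count of 2). The prior count draws the triangles of the low genes Lhx2 and Lgr5 toward 0; both triangles of Plet1 are near -2.57 and those of Lrig1 lie on either side of 0.

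The order of the 10 genes by TPM differed between the groups. In KO cells the order was Plet1, Sox9, Lrig1, Gas1, Tbx1, Nfatc1, Lhx2, Cd34, Lgr5 and Lgr6, and only the neighbours Lrig1 (53.6 ± 28.9 TPM) and Gas1 (49.8 ± 23.8 TPM; SD, n = 2) had overlapping libraries. In WT cells it was Plet1, Lrig1, Sox9, Nfatc1, Gas1, Tbx1, Cd34, Lhx2, Lgr6 and Lgr5, and of the neighbours only the last pair, with 0.057 ± 0.006 and 0.04 ± 0.01 TPM (SD, n = 3), met at a shared value. Gas1 thus stood above Nfatc1 in KO cells and below it in WT cells. Gas1 was above 83.1% of the genes in the table in KO and above 47.9% in WT. The summed TPM of the 7 bulge and hair germ genes was 185.89 and 158.03 in KO1 and KO2, against 75.02, 76.37 and 76.39 in WT1, WT2 and WT3. For the 3 infundibulum and isthmus genes it was 258.02 and 233.77 in KO, against 1244.79, 1259.29 and 1141.68 in WT, most of it Plet1.

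The direction in which the KO libraries differed was not shared by the genes. KO1 was the higher KO library for Lrig1, Gas1, Lgr5, Lgr6 and, by a small margin, Sox9 and Cd34. KO2 was the higher for Tbx1, Lhx2 and, by a small margin, Plet1 and Nfatc1. Of the tested genes, Lrig1, Lhx2 and Gas1 differed by more than 2-fold between KO1 and KO2, and of these only Lrig1 changed sign.

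**Figure D3:**
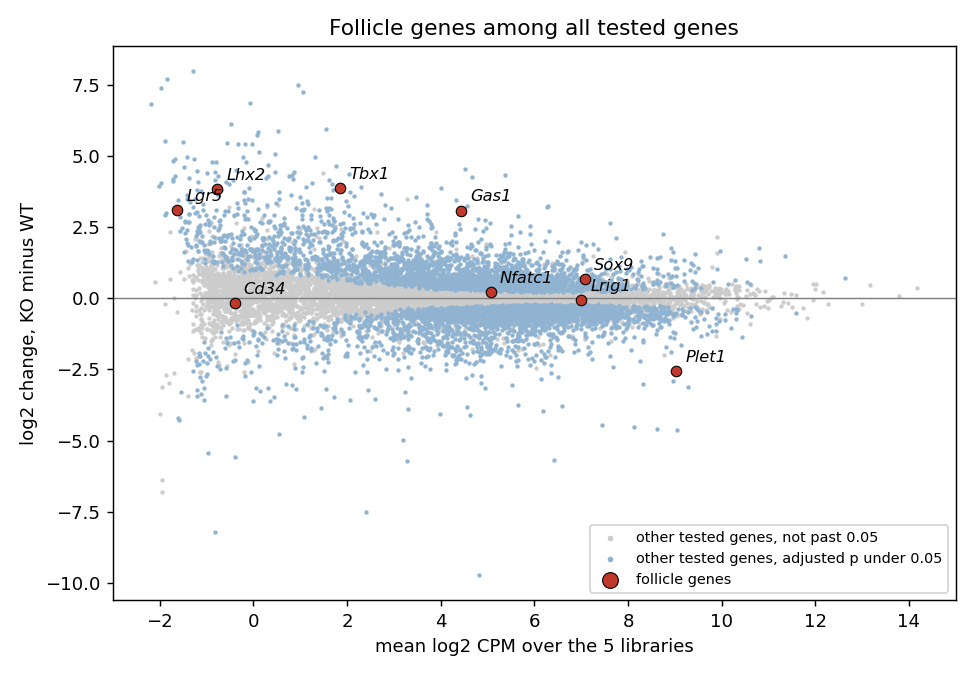
Log2 change, KO minus WT, against mean log2 CPM over the 5 libraries for the 12957 tested genes, with the 9 tested follicle genes in red. Plet1 lies far below 0, Tbx1, Gas1, Lhx2 and Lgr5 lie high, and Nfatc1, Lrig1 and Cd34 lie near 0.

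Other genes of the follicle regions moved in both directions. The counts of this and the following lists stand beside 20.4% higher and 20.4% lower over all genes tested. Over all genes the calls dropped from 5286 to 1957, 2282 and 2244 without WT1, WT2 and WT3, so losses in that setting are not particular to a list. Without KO1 or without KO2 the calls over all genes rose instead, so gains there are not particular to a list either. In those fits the lone KO library is taken to vary as the WT ones do. The count filter was applied anew with each library left out, so the number of genes tested in a list can differ from the one given. Of 25 tested companion genes of the bulge and hair germ, 10 rose, 3 fell and 12 did not pass, with a median log2 change of 0.22. Fgfr1, an FGF receptor, rose to 15.69 and 17.42 TPM in KO, against 2.21, 2.79 and 2.22 TPM in WT (log2 2.79 ± 0.13, adjusted p = 0.00084). Tnc, the matrix protein tenascin-C, was at 213.12 and 146.93 TPM in KO, against 30.62, 29.3 and 25.93 TPM in WT (log2 2.63 ± 0.18). Fst, the activin antagonist follistatin, fell to 92.6 and 46.2 TPM in KO, against 582.26, 578.98 and 550.78 TPM in WT (log2 -3.02 ± 0.33, adjusted p = 0.0036), opposite in direction to Fgfr1 and Tnc. Vdr, the vitamin D receptor, and Barx2, a homeobox factor, rose with log2 changes of 0.87 and 1.12. The list was chosen with earlier results of these data known, and without WT1, WT2 or WT3 its rises numbered 7, 7 and 8, while without KO2 they numbered 16. Its falls numbered 1, 1 and 2 without WT1, WT2 and WT3, and 6 without KO1. Krt15 and Gli1, 2 of the 10 rises, passed the count filter only through KO, and 2 tested genes passed it only through WT.

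Of 23 tested companions of the isthmus, infundibulum and sebaceous gland, 10 rose, 4 fell and 9 did not pass, with a median log2 change of 0.21. Klk10, a kallikrein protease, fell to 50.46 and 50.51 TPM in KO, against 154.44, 147.78 and 157.94 TPM in WT (log2 -1.58 ± 0.07, adjusted p = 0.0008). Fasn, the fatty acid synthase, fell by 1.24 on the log2 scale. Aqp3, a glycerol and water channel, rose to 97.73 and 81.3 TPM in KO, against 32.03, 28.8 and 27.93 TPM in WT (log2 1.62 ± 0.11). Klk10 and Fasn shared the direction of Plet1. In the fit as reported more of these companions rose than fell, but with the replicate numbers added as a block 3 rose and 4 fell. With any 1 WT library left out the rises numbered 2, and the falls numbered 1, 2 and 2 without WT1, WT2 and WT3 and 8 and 9 without KO1 and KO2. Gata6 and Nebl, 2 of the 10 rises, passed the count filter only through KO, and over the 21 other genes the median was -0.018. Of 27 tested genes of the epidermis between follicles, 11 rose, 3 fell and 13 did not pass. Most of the list is basal, but Krt1, Krt10 and Ivl belong to the differentiating layers. Krt1 (log2 4.26) and Krt10 (2.32) had the largest rises of the list, and Ivl did not pass. Notch1 (0.84) and Fgfr3 (1.36) also rose, and the integrin Itga6 (-0.91) and the keratinocyte factor Trp63 (-0.73) fell. With any 1 WT library left out the rises of this list numbered 2 and the falls 2.

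**Figure D4:**
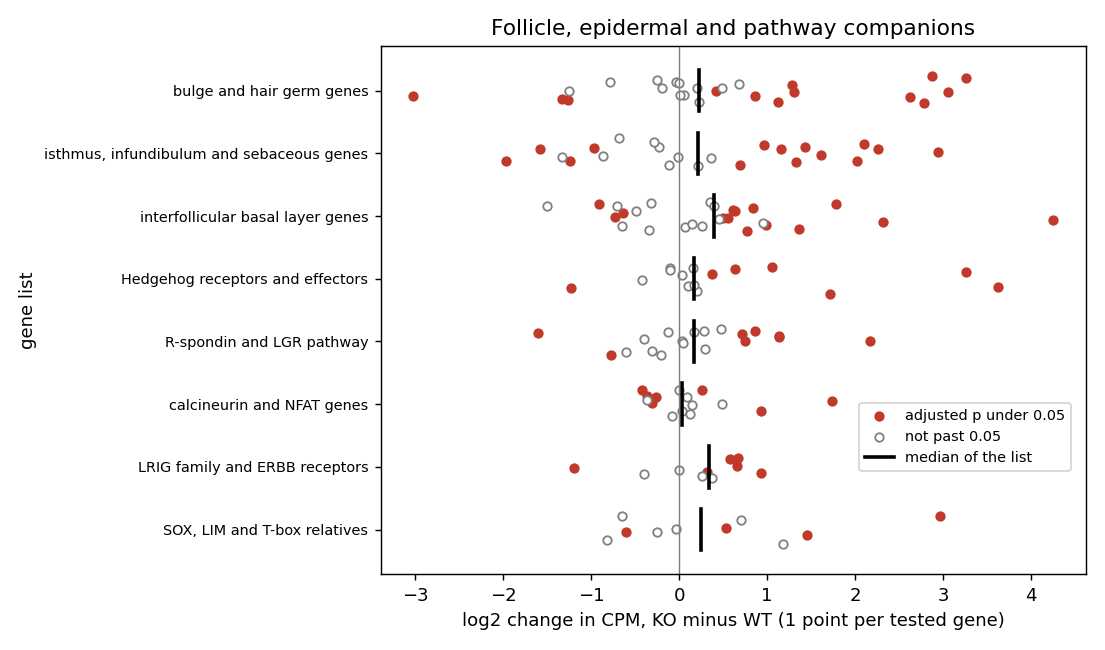
Log2 change, KO minus WT, of each tested gene in 8 companion lists, with 1 point per gene, filled red where adjusted p is under 0.05, and a black bar at the list's median. Every list holds genes on both sides of 0, and the medians lie between 0.03 and 0.40, against 0.02 over all tested genes.

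Hedgehog genes are the pathway companions of Gas1. Of 15 tested, 6 rose, 1 fell and 8 did not pass, with a median log2 change of 0.17. Boc, another Hedgehog co-receptor, rose to 7.58 and 8.2 TPM in KO, against 3.87, 3.92 and 3.74 TPM in WT (log2 1.06 ± 0.10, adjusted p = 0.00278). Gli1, a transcription factor that is itself a Hedgehog target, was at 3.33 and 1.52 TPM in KO, against 0.13, 0.39 and 0.24 TPM in WT (log2 3.26 ± 0.53, adjusted p = 0.00843), and it stands in the bulge list as well. Scube2, a secreted protein that releases Hedgehog ligand, had 53 and 32 counts in KO, against 5, 2 and 3 in WT (log2 3.63 ± 0.46). Dhh, a ligand, fell to 2.48 and 3.73 TPM in KO, against 7.64, 8.31 and 7.97 TPM in WT (log2 -1.22 ± 0.19). The 1 fall in the list is thus a ligand, and with any 1 WT library left out the rises numbered 3. Without KO1 the falls numbered 3. Gli1 and Scube2, 2 of the 6 rises, passed the count filter only through KO.

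For Lgr5 and Lgr6 the companions are genes of the R-spondin and LGR pathway, among them the Frizzled receptors. No R-spondin ligand was among those tested. Of 19 tested, 6 rose, 2 fell and 11 did not pass, with a median of 0.17. The Frizzled receptor Fzd7 rose to 15.38 and 13.83 TPM in KO, against 3.7, 2.99 and 3.22 TPM in WT (log2 2.17 ± 0.12, adjusted p = 0.00128). Fzd1 rose by 1.13 on the log2 scale, and Znrf3, the ubiquitin ligase that removes Frizzled receptors and is inhibited through R-spondin and LGR proteins, fell by 0.78. Without WT1, WT2 or WT3 the rises numbered 2, 3 and 2, and without KO2 they numbered 10. The falls numbered 5 without KO1 or without KO2, and 1 with any 1 WT library left out.

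For Nfatc1, the calcineurin and NFAT list of 15 tested genes had 3 rises, 4 falls and 8 that did not pass, with a median of 0.03. Rcan1, a calcineurin inhibitor and NFAT target, was at 51.2 and 30.18 TPM in KO, against 19.28, 21.86 and 22.89 TPM in WT (log2 0.94 ± 0.23, adjusted p = 0.0258), while the calcineurin subunit Ppp3r1 fell by 0.31 and Nfatc3 by 0.26. With any 1 WT library left out, no gene of the list was called. Of the 3 rises 1 was a gene that passed the count filter only through KO. For Lrig1, the list of LRIG proteins and their receptor targets had 5 rises, 1 fall and 4 that did not pass of 10 tested. Erbb2 (log2 0.67), Erbb3 (0.94), Lrig2 (0.58) and Lrig3 (0.66) rose, and Met, the receptor of hepatocyte growth factor, fell to 34.68 and 29.47 TPM in KO, against 76.64, 72.96 and 73.84 TPM in WT (log2 -1.20 ± 0.10). The rises of this list numbered 4, 3 and 3 without WT1, WT2 and WT3 and 1 with the replicate block, and the falls numbered 2 without KO2. For Sox9, Lhx2 and Tbx1, 10 relatives were tested, and 3 rose, 1 fell and 6 did not pass. Sox12 (1.45), Sox5 (2.96) and Ldb1 (0.53), the cofactor of LIM homeodomain proteins, rose, and Sox15, a SOX factor of keratinocytes, fell by 0.61. Of these, Sox5 had 22.26 and 16.34 counts in KO, against 2.0, 4.1 and 1.0 in WT, so its fold rests on few reads and it passed the count filter only through KO. Without WT1, WT2 and WT3 the rises numbered 0, 1 and 1 and the falls 0, and without KO1 and KO2 the rises numbered 4 and 5 and the falls 3 each.

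Likeness of pattern was measured as the root mean square difference of log2 CPM, each gene centred on its own mean, over the 5 libraries, among tested genes with a mean log2 CPM of at least 1. The gene nearest to Plet1 was Lipg, endothelial lipase, at 0.0548, with 26.7 and 28.0 CPM in KO, against 163, 176 and 165 CPM in WT, followed by Rassf6 at 0.104. Nearest to Sox9 was Ulk2 at 0.00976, nearest to Nfatc1 was Zfp398 at 0.0123 and nearest to Lrig1 was Serpinb10 at 0.0338. Gas1 was nearest to B3gnt3 at 0.126, with 124 and 63.5 CPM in KO for B3gnt3, against 9.74, 11.1 and 8.63 CPM in WT. Tbx1 was nearest to Lurap1l at 0.285, Lhx2 to Cyp27a1 at 0.338, Lgr5 to Rhbdl3 at 0.122 and Cd34 to Gm14296 at 0.19. Among the follicle genes themselves, Nfatc1 was the nearest to Sox9 (0.214), to Lrig1 (0.429) and to Cd34 (0.565). Gas1 and Lgr5 were nearest to each other at 0.448, as were Tbx1 and Lhx2 at 0.676, and Plet1 was nearest to Lrig1 at 1.23. With 5 libraries in 2 groups, such likeness largely restates the group difference, and 11156 or 11157 genes were searched for each.

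Keratinocyte markers were high in every library, with a summed level of 53140 and 41036 TPM in KO1 and KO2, against 42207, 41789 and 42852 TPM in WT, and none of the 12 at 0. Of those 12, 2 rose and 2 fell, while with any 1 WT library left out the rises numbered 0, without KO2 they numbered 7, and without KO1 and KO2 the falls numbered 5 and 4. Some markers of other cell types moved with the group. Of 5 tested pericyte and smooth muscle markers 4 rose, and the list summed to 1846 and 696 TPM in KO, against 287, 284 and 331 TPM in WT. The rises numbered 2 with any 1 WT library left out, and 2 of the 4, Pdgfrb and Cspg4, passed the count filter only through KO. Most of the sum is Acta2, at 1605.52 and 536.73 TPM in KO, against 222.06, 218.83 and 251.39 TPM in WT, whereas the pericyte marker Rgs5 was at or under 0.07 TPM everywhere. Of 10 tested fibroblast markers 4 rose, with sums of 406 and 203 TPM in KO, against 243, 247 and 245 TPM in WT. Without WT1, WT2 and WT3 the fibroblast rises numbered 1, 2 and 1, and without KO2 they numbered 9. Dcn and Postn, among the 4 that rose, passed the count filter only through KO. Col1a1 was at 6.18 and 1.38 TPM in KO, against 0.49, 0.53 and 0.05 TPM in WT, and Lum was at 0 in 3 of the 5 libraries. The sums of the keratinocyte, pericyte and smooth muscle, and fibroblast lists were all higher in KO1 than in KO2. Among the follicle genes KO1 was the higher for Lrig1, Gas1, Lgr5, Lgr6, Sox9 and Cd34, and KO2 for Tbx1, Lhx2, Plet1 and Nfatc1. The margins were small for Sox9, Cd34, Plet1 and Nfatc1. The part of fibroblast or mural RNA in the follicle gene results was not tested. Dermal papilla markers summed to 21.2 and 9.0 TPM in KO, against 5.54, 6.45 and 5.85 TPM in WT, with 2 rises and 1 fall among 4 tested, or 1 rise and no fall with any 1 WT library left out. In that list Corin was at or under 0.1 TPM in every library, and Sox2 was at 0 in both KO libraries, against 0.12, 0.27 and 0.08 TPM in WT. Melanocyte markers summed to 8 and 11 TPM in KO and 5.83 to 7.03 TPM in WT, with 1 rise among 6 tested and 2 without KO1. Merkel cell markers (31.3 and 24.4 TPM in KO, 29.2 to 41.3 TPM in WT) and endothelial markers (1.71 and 2.09 TPM in KO, 2.63 to 2.68 TPM in WT) had 1 fall each among 2 tested. The endothelial fall was not called with any 1 WT library left out, nor the Merkel fall without WT1 or without WT3, and without KO2 each list had 1 rise. Haematopoietic and mast cell markers summed to 0.24 and 0.49 TPM in KO, against 1.7, 1.11 and 0.44 TPM in WT, with Cd48 at 0 in every library.

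**Figure D5:**
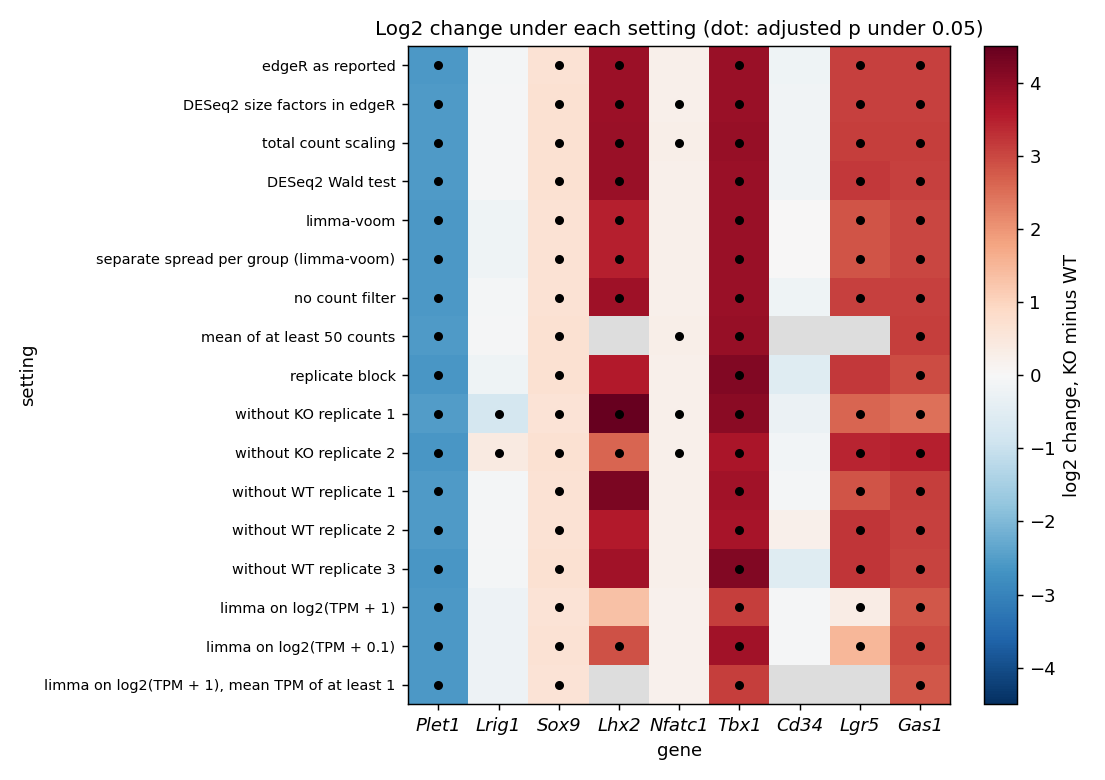
Log2 change of the 9 tested follicle genes (columns, colour scale, KO minus WT) as reported and under 16 alternative settings (rows), with a dot where adjusted p is under 0.05 and grey where the gene was not tested. Plet1, Sox9, Tbx1 and Gas1 carry a dot in every row, Lgr5 in all rows that test it except the replicate block, and Cd34 in none.

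The calls of Plet1, Tbx1, Gas1 and Sox9 held in all 16 alternative settings. The log2 change ranged between -2.62 and -2.52 for Plet1, between 3.12 and 4.18 for Tbx1, between 2.47 and 3.51 for Gas1 and between 0.63 and 0.69 for Sox9. Of these genes Sox9 came nearest to the threshold, with an adjusted p of 0.0484 in edgeR with the replicate block. Lgr5 was called in 13 of 14 and Lhx2 in 9 of 14, as the map of log2 changes by setting shows.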

How the data were processed

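Per the labels' protocols, total RNA was extracted with TRIzol and libraries were made by BGI. The authors deposited 1 table of 17657 genes with estimated (expected) counts, TPM and FPKM for each of the 5 libraries. Per the submitters' processing notes, expected counts came from RSEM 1.3.1 on GRCm38.p6; the aligner and strand setting were not given in the sources used here. RSEM divides reads shared by several transcripts by probability. The deposited TPM values are per transcript length and scaled within each library, per the file headers, and the deposited FPKM values served only to derive effective lengths. Libraries held 20283084 to 20773407 counts, so 1 CPM stands for about 20.6 counts.

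Rounded counts were tested with edgeR 4.0.16 under R 4.3.3 (filterByExpr by group, TMM, quasi-likelihood test, two-sided, no covariate, Benjamini-Hochberg over 12957 genes, threshold 0.05). Genes that meet the count filter in 1 group alone were found from the filter's own minimum, after the values were seen. Alternatives were scaling by total count or by DESeq2's size factors, DESeq2 1.42.0's Wald test, limma-voom (limma 3.58.1), a separate spread per group, no count filter, a mean of at least 50 counts, the replicate block, each library left out, and limma on log2(TPM + 1), on log2(TPM + 0.1) and on log2(TPM + 1) with a mean TPM of at least 1. Intervals are 95% exact binomial (Clopper-Pearson) and cover counting error only. The KO pair differed beyond counting noise with a chi-square per degree of freedom of 101, and WT pairs with 3.33 to 6.18, so all libraries were kept as separate.

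The members and the lists were chosen with earlier results of these data known. Named genes are the 10 members, Angptl4, of each companion list up to 5 with the smallest p, and the 2 genes nearest in pattern to each member. The marker genes named singly (Acta2, Rgs5, Pdgfrb, Cspg4, Col1a1, Dcn, Postn, Lum, Corin, Sox2) and Krt15, Gata6, Nebl, Krt1, Krt10 and Ivl were chosen after their values were seen. Promoter windows are from RefSeq (GRCm38.p6), and those of 7 of the 10 members were searched. Lgr5 and Sox9 had no entry, and Nfatc1 was left out of the search.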

Additional observations from a re-analysis of the deposited data

How the results depend on the processing

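The count of called genes over the whole table, 5286, was 3192 with a separate spread per group and 1580 with the replicate block, and ranged between 1957 and 8068 with each library left out in turn. The 5 follicle genes higher in KO were 3 with the replicate block and 3 on log2(TPM + 1) with a mean TPM of at least 1, where Lgr5 and Lhx2 were not tested, and between 4 and 7 with each library left out. The 1 follicle gene lower in KO became 2 without KO1, where Lrig1 was added, within a range between 1 and 2. Lrig1 turned to 0.40 without KO2, within -0.79 to 0.40 over the left-out libraries. Cd34 turned to 0.014 with limma-voom, to 0.014 with a separate spread per group and to 0.23 without WT2 (range -0.56 to 0.23), and it passed in none. The cause of these shifts was not tested.

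KO and WT share the replicate numbers 1 and 2. Deviations from the group means of same-numbered libraries correlated at 0.00714 for number 1 and 0.0676 for number 2. With 2 KO libraries the deviations of KO1 and KO2 mirror each other, so this check cannot decide whether same-numbered libraries were paired. With the replicate block Lgr5 (adjusted p = 0.0596, range 0.00232 to 0.0596) and Lhx2 (0.0566) were no longer called, and Plet1, Tbx1, Gas1 and Sox9 were.

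With 2 KO libraries that differ widely, the spread in KO is poorly known, and Angptl4 had an adjusted p of 0.127 with a separate spread per group. Depth limits Lgr6, Lgr5, Lhx2 and Cd34, each under 100 summed counts in KO. No scaling moved the median of all genes by more than 0.04 on the log2 scale.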
